A study of Mus musculus with 16 samples.

Results

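The liver sinusoid is a capillary lined by an unusual endothelium, and 38 genes that mark this lining or blood vessels in general were followed here in whole liver. They were chosen by name, as known sinusoidal or general endothelial genes, and all 38 were found in both count tables, which together listed 23167 gene identifiers in common (24840 in the female table and 24623 in the male table). All 38 also passed the filter on low counts in every comparison, so the counts below cover every one of them. The study sequenced polyadenylated RNA from the livers of 16 mice. Both genotypes carried floxed Matr3, the gene of the nuclear RNA- and DNA-binding protein matrin-3. The floxed mice served as controls, and the liver-specific knockouts (LKO), littermates per the labels, also carried Cre recombinase under the albumin promoter. There were 4 floxed males (numbered 1 to 4), 4 LKO males (5 to 8), 4 floxed females (1 to 4) and 4 LKO females (5 to 8). All mice began a high-fat diet with 60% of energy as fat at 7 weeks of age, stayed on it for 16 weeks and were fasted for 12 hours before the liver was taken. The albumin promoter is active in hepatocytes and cells of that lineage, and recombination in each cell type was not measured.

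Liver sinusoidal endothelial cells have open pores and no continuous basement membrane, and they take up waste proteins, immune complexes and modified matrix from blood with a set of scavenger receptors (Stab1, Stab2, Mrc1, Fcgr2b). They survive and keep their identity through receptors for vascular endothelial growth factors (Kdr, Flt1, Flt4) and angiopoietins (Tek, with Tie1), and through transcription factors such as Gata4. They also send signals to neighbouring hepatocytes: Wnt2, Wnt9b and Rspo3 maintain the gene programme around the central vein, and Bmp2 sets hepatocyte iron sensing. Whole-liver RNA mixes all cell types, so fewer endothelial cells and less RNA per endothelial cell cannot be told apart.

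All 38 genes had counts in every library, and their summed counts made up between 0.0497% and 0.0849% of a library. The gene with the fewest counts in a library had between 17 and 65. Per kilobase of exon, Plvap, the protein of the diaphragms that span endothelial pores, had the highest level in floxed females, at 32.0 ± 3.47 CPM per kb (counts scaled to library size with TMM factors, the CPM used throughout; SD, n = 4). Clec4g, a lectin of the sinusoid, followed at 16.7 ± 0.570 CPM per kb, and endoglin (Eng), a coreceptor for TGF-beta family ligands, at 12.4 ± 1.39 CPM per kb. Mrc1 (7.57 ± 1.48 CPM per kb) and Fcgr2b (7.30 ± 0.167 CPM per kb) came next and did not differ beyond their SDs. Wnt9b was lowest, at 0.210 ± 0.0530 CPM per kb. In floxed males Plvap, Clec4g and Eng held the same 3 places, at 29.3, 15.5 and 14.6 CPM per kb, where the last pair did not differ beyond their SDs of 2.11 and 1.76.

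RefSeq promoter windows of the GRCm38.p6 assembly, from 250 bases before to 50 bases after the start, were given for 19 of the 38 genes, with more than 1 start for Egfl7 alone. They were searched on both strands for a GATA site (AGATAA) and for AGGAAG or CGGAAG. The latter are forms of the site that ETS-family factors, the common regulators of endothelial genes, bind. An ETS match was found in 13 of the 21 windows of these genes (12 of the 19 genes) and in 46.5% of all 32851 windows. A GATA match was found in 1 of the 21 windows, that of Tek, and in 11.2% of all windows. The windows of 3 genes with small p-values in females (Flt4, Fcgr2b, Clec4g) are shown beside those of the related scavenger receptors Stab1 and Stab2, with ETS matches in capitals. They span chr11:49609429-49609728 on the plus strand (Flt4), and, all on the minus strand, chr1:170976022-170976321 (Fcgr2b), chr8:3720602-3720901 (Clec4g), chr14:31168592-31168891 (Stab1) and chr10:87007893-87008192 (Stab2).
Flt4: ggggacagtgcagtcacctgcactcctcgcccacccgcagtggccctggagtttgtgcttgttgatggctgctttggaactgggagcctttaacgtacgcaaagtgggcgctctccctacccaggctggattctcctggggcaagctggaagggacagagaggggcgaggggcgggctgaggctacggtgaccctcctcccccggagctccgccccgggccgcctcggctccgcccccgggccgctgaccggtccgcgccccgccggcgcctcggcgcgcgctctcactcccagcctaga
Fcgr2b: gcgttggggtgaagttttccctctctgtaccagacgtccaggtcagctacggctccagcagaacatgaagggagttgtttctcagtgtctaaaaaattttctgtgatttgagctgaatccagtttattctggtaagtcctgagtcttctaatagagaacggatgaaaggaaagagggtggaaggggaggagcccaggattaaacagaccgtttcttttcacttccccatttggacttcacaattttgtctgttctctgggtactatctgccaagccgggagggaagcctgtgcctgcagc
Clec4g: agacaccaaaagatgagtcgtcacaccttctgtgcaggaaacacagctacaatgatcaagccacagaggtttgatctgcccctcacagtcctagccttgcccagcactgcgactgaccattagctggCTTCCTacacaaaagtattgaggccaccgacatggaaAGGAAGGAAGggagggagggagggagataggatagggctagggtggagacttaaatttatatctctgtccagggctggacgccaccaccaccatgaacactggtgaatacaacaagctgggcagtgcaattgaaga
Stab1: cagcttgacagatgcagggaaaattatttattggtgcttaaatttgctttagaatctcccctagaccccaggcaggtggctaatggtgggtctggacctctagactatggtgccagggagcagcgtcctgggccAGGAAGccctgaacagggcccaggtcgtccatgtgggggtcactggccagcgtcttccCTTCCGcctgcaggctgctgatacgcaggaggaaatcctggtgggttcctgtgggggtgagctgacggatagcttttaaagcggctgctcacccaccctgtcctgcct
Stab2: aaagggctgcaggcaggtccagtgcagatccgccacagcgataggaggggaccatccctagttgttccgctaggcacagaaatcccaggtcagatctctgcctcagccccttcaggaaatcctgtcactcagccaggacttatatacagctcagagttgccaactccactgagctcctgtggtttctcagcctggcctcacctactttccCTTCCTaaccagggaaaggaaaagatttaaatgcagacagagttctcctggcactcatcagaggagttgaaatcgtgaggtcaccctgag
Clec4g held 3 matches, 2 of which overlap. Stab1 held 2 and Stab2 held 1, while the windows of Flt4 and Fcgr2b held neither form. Other forms of the ETS site were not searched. Genes that fell in females therefore stood both with and without these letters in the window.

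The targeted gene was lower in every LKO library. In females Matr3 lay between 52.93 and 64.69 CPM in floxed livers and between 37.05 and 40.31 CPM in LKO livers, 65.4% of the floxed mean. In males it lay between 52.94 and 60.9 CPM against 33.57 to 36.49 CPM, 61.3% of the floxed mean. The groups did not overlap in either sex (two-sided exact permutation p = 0.02857 in each, the smallest that 70 regroupings allow). Total counts per library ran from 30495505 to 36496193. Several libraries stood apart in the endothelial genes before any test. Among LKO females, LKO 7 had the highest value for 28 of the 38 genes, and among floxed males, floxed 3 had the lowest for 29 of 38. Female floxed 4 had the highest value of the floxed females for 19 genes and female floxed 3 the lowest for 22.

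**Figure D1:**
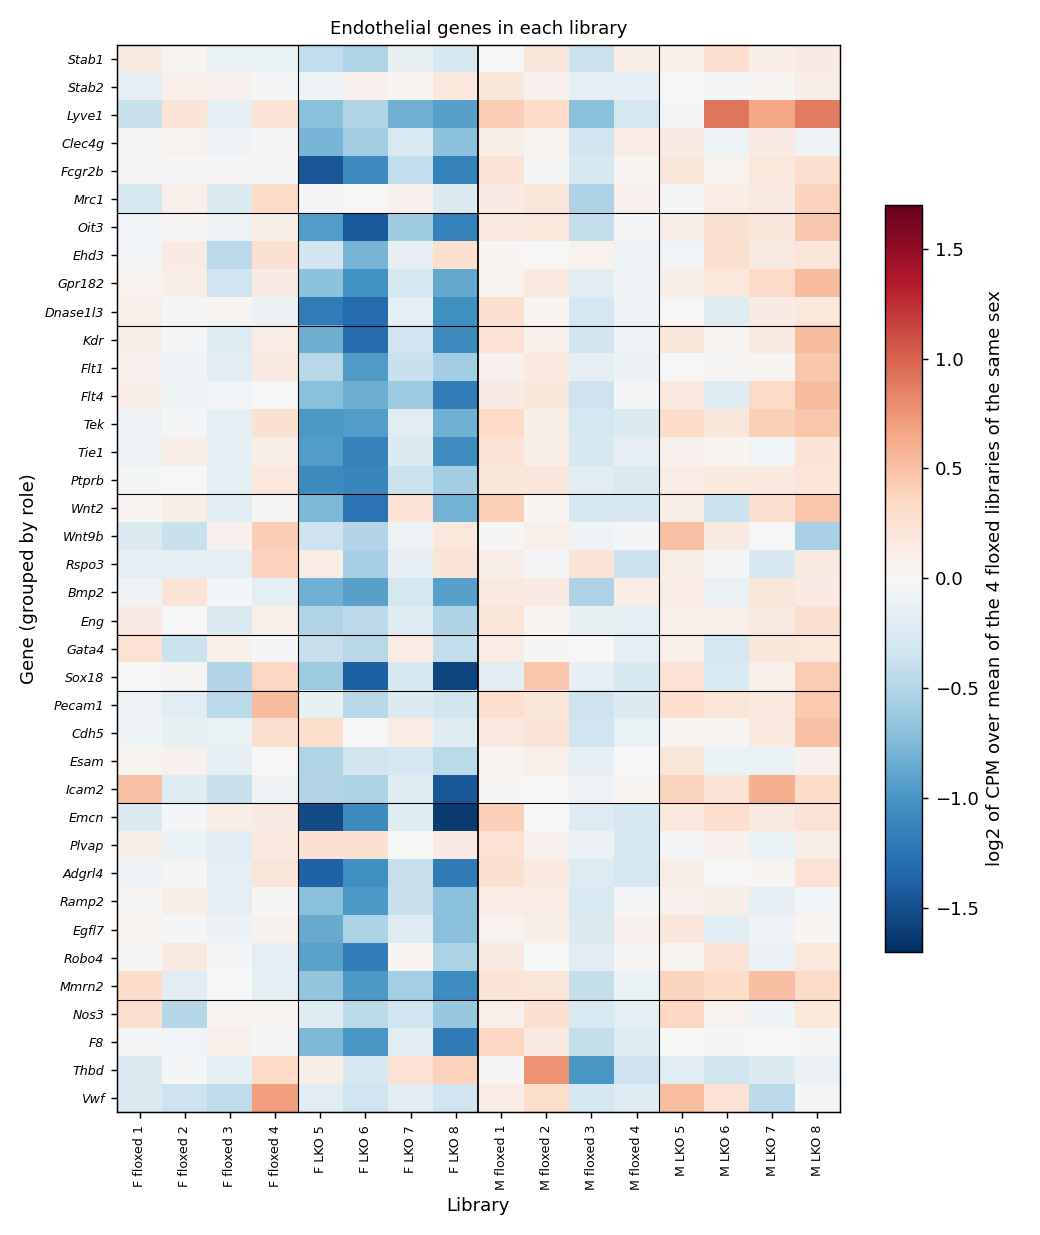
Level of each of the 38 genes (rows, grouped by role) in each of the 16 libraries (columns; F, female; M, male), as log2 of CPM over the mean of the 4 floxed libraries of the same sex. Blue fills most rows of LKO females 5, 6 and 8 and is paler in LKO 7, and the male libraries show no such block.

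In LKO females 19 of the 38 endothelial genes fell and none rose (edgeR quasi-likelihood test; a gene is said to be called where its p, adjusted over all genes by Benjamini-Hochberg, was under 0.05). Among all 15432 genes tested in females, 4.85% were called lower and 4.44% higher. The median log2 fold change was -0.58 over the 38 genes and 0.00 over all genes, 34 of the 38 values were below 0, and 25 genes had an unadjusted p under 0.05. For 19 genes every LKO female was below every floxed female, against 8.31% of all genes, and for 0 of 38 every LKO female was above (7.61% of all genes). These 19 without overlap are not the called 19: Stab1 and Esam did not overlap and were not called, while Gpr182 and Eng were called and overlapped. The receptors of the VEGF and angiopoietin axis, taken with the phosphatase Ptprb, fell in 6 of 6 genes, and the junction proteins and transcription factors had no call.

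The number of calls depended on single libraries. With floxed 1, 2, 3 or 4 left out it was 3, 5, 11 and 14 in that order, and with LKO 5, 6, 7 or 8 left out it was 5, 4, 24 and 5. The share of all genes called lower in the same fits was 1.30%, 1.62%, 2.39% and 6.21%, and then 1.59%, 1.97%, 7.78% and 2.15%. Every call in these fits was in the lower direction, and the median over the 38 genes stayed between -0.73 and -0.56. Without both floxed 4 and LKO 7, 23 were called (9.79% of all genes called lower), 18 of them among the 19. Oit3, Fcgr2b and Flt4 kept their call whichever of the 8 libraries was left out.

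**Figure D2:**
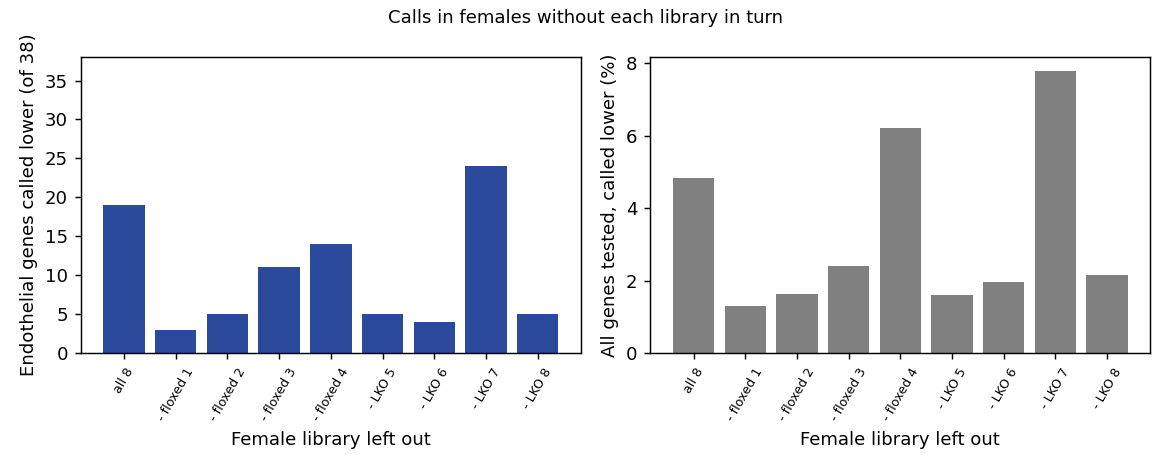
Left, the number of the 38 endothelial genes called lower in LKO females with all 8 libraries and with each left out in turn; right, the percentage of all genes tested that were called lower in the same fits. Both are smallest without floxed 1 (3 genes and 1.30%) and largest without LKO 7 (24 genes and 7.78%).

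Among the scavenger and endocytic receptors, 3 of 6 fell. Fcgr2b (chr1:170958617-170976547 in mm10), the inhibitory Fc gamma receptor that sinusoidal cells use to clear small immune complexes, was at 43.5, 42.3, 43.5 and 41.9 CPM in floxed females 1 to 4. It was at 15.6, 20.3, 32.0 and 19.4 CPM in LKO females 5 to 8. The floxed values lay close together, LKO 7 was the nearest to them, and the groups did not overlap. The log2 fold change was -0.97 ± 0.18 (SE, adjusted p = 0.0141). Clec4g (chr8:3707064-3720651), a C-type lectin of sinusoidal and lymph node endothelium, was at 42.2, 43.4, 40.2 and 41.2 CPM in floxed and 24.1, 27.8, 34.8 and 25.6 CPM in LKO females. All LKO values were lower, with LKO 7 again nearest, and the log2 fold change was -0.57 ± 0.11 (adjusted p = 0.0150). Its call was lost only without floxed 1 (adjusted p = 0.0501). Lyve1, a hyaluronan receptor of sinusoids and lymphatic vessels, fell by 0.73 on the log2 scale (adjusted p = 0.0392) from a low level, 2.43 to 3.68 CPM against 1.67 to 2.23 CPM. This call was lost without any 1 of the 8 libraries (adjusted p between 0.0501 and 0.117), and here LKO 7 was the second lowest.

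The other 3 receptors of this group had no call. Stab2, the main hyaluronan scavenger receptor of the sinusoid, lay between 50.8 and 59.8 CPM in floxed and between 53.8 and 63.9 CPM in LKO females, with a log2 fold change of 0.06 ± 0.08 (adjusted p = 0.667). Its sign turned with scaling by library totals (-0.019). Mrc1, the mannose receptor, which macrophages also express, had a value of -0.05 (adjusted p = 0.848). The related scavenger receptor Stab1 lay between 46.7 and 56.2 CPM in floxed and between 35.4 and 46.3 CPM in LKO females, at -0.32 ± 0.10 (adjusted p = 0.0721). DESeq2 called Stab1 (adjusted p = 0.0445), as did scaling by library totals (adjusted p = 0.036).

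Oit3 (chr10:59422958-59441778), like Stab2 a gene of sinusoidal cells, fell where Stab2 had no call. It encodes a zona pellucida domain protein of the sinusoidal lining. It was at 14.5, 15.2, 14.16 and 16.1 CPM in floxed and 7.79, 5.55, 9.81 and 6.77 CPM in LKO females, which leaves a wide gap between the groups. The log2 fold change was -1.001 ± 0.16 (adjusted p = 0.00788), the largest fall among the called genes. Per kilobase of exon, the ratio of Oit3 to Stab2 lay between 0.750 and 0.904 in floxed females and between 0.292 and 0.529 in LKO females. In males this ratio lay between 0.907 and 1.175 in floxed and between 1.177 and 1.377 in LKO livers. The ratio of Fcgr2b to Stab2 lay between 1.07 and 1.30 in floxed and between 0.439 and 0.830 in LKO females. For Plvap against Stab2 the groups overlapped, at 4.24 to 5.97 and 4.85 to 6.29. These pairs were chosen after the values were seen and were not tested.

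Of the other sinusoid-enriched genes, Gpr182, an atypical chemokine receptor, was at 18.3, 18.95, 13.98 and 19.4 CPM in floxed and 10.95, 8.68, 14.4 and 9.68 CPM in LKO females. LKO 7 exceeded floxed 3, so the groups overlapped. Gpr182 fell by 0.69 ± 0.16 on the log2 scale (adjusted p = 0.0305), a call lost if floxed 1 or 2 or LKO 5, 6 or 8 was omitted (adjusted p up to 0.0883). Dnase1l3, a secreted DNase made by sinusoidal cells and some phagocytes, fell by 0.85 (adjusted p = 0.0414). It was at 27.2 to 30.9 CPM in floxed livers, at 11.8 to 14.1 CPM in LKO 5, 6 and 8 and at 26.1 CPM in LKO 7. The Dnase1l3 call was lost without any library other than floxed 4 or LKO 7 (adjusted p up to 0.114). Ehd3, an endosomal sorting protein, had no call at -0.20.

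**Figure D3:**
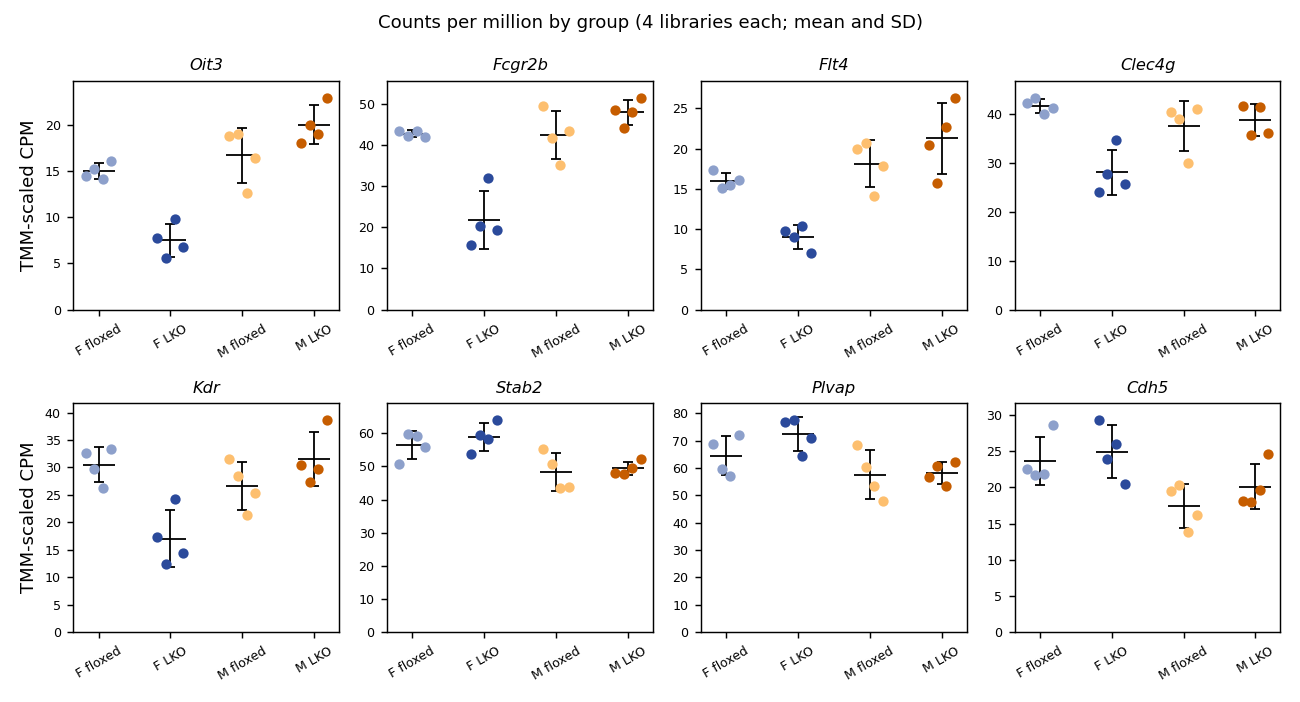
CPM of 8 endothelial genes in the 4 groups; points are libraries in label order, and bars give the mean and SD of 4. CPM were scaled within each sex. Oit3, Fcgr2b, Flt4, Clec4g and Kdr lie lower in every LKO female than in any floxed female, and Stab2, Plvap and Cdh5 overlap between the genotypes.

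All 6 genes of the VEGF and angiopoietin axis, the receptors and the phosphatase Ptprb, fell in LKO females. Flt4 (VEGFR3, chr11:49609263-49652739), a receptor for VEGF-C found on sinusoids and lymphatic vessels, was at 17.3, 15.1, 15.5 and 16.1 CPM in floxed and 9.76, 8.998, 10.4 and 6.99 CPM in LKO females. No LKO value came near the floxed range, and LKO 7 differed little from LKO 5. Flt4 had the smallest p of the 38 genes, with a log2 fold change of -0.82 ± 0.12 (adjusted p = 0.00723). Kdr (VEGFR2, chr5:75932827-75978458), the main signalling receptor for VEGF-A, was at 32.6, 29.7, 26.3 and 33.4 CPM in floxed and 17.2, 12.3, 24.2 and 14.4 CPM in LKO females. The groups did not overlap, although LKO 7 and floxed 3 were only a few CPM apart. The log2 fold change of Kdr was -0.84 ± 0.18 (adjusted p = 0.0235). Ptprb, the phosphatase that restrains Tek, was at 34.7, 35.5, 31.9 and 40.5 CPM in floxed and 16.9, 16.5, 27.8 and 23.7 CPM in LKO females. All 4 LKO values were below the lowest floxed value, and the log2 fold change was -0.75 ± 0.16 (adjusted p = 0.0240).

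The rest of this axis had falls of similar size. Tie1, the orphan partner of Tek, fell by 0.79 (adjusted p = 0.0335), Tek itself, the angiopoietin receptor, by 0.69 (adjusted p = 0.0481) and Flt1 (VEGFR1), which binds VEGF-A as a decoy, by 0.59 (adjusted p = 0.0359). LKO 7 was the highest LKO library for all of the 6 genes, at 9.18 CPM for Tie1 where the other LKO females lay between 4.87 and 5.57 CPM. Of the 6 calls, that of Flt4 held without any 1 library. Kdr lost its call if floxed 1 or 2 or LKO 5, 6 or 8 was omitted (adjusted p up to 0.0722), and Ptprb if floxed 1 or 2 or LKO 5 or 6 was (up to 0.0682). Tie1 kept it only when floxed 4 or LKO 7 was the library left out (up to 0.0954 otherwise), and Flt1 and Tek only when LKO 7 was (up to 0.0994 and 0.130 otherwise).

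Of the signals that the endothelium sends, Bmp2 fell, as did Eng, and the Wnt signals had no call. Bmp2 (chr2:133552159-133562885), the sinusoidal ligand that induces hepcidin in hepatocytes, was at 12.9, 15.6, 13.3 and 12.0 CPM in floxed and 7.60, 7.06, 10.95 and 7.08 CPM in LKO females. LKO 7 stood well above the other LKO females and just below the floxed range. The log2 fold change of Bmp2 was -0.72 ± 0.15 (adjusted p = 0.0230). Eng fell by 0.41 (adjusted p = 0.0377), with LKO 7 at 44.3 CPM inside the floxed range of 42.9 to 56.0 CPM. Bmp2 kept its call only without floxed 4 or LKO 7, and Eng only without floxed 3 or LKO 7 (adjusted p otherwise up to 0.0721 and 0.109). Wnt2 lay between 2.11 and 2.56 CPM in floxed females, between 1.00 and 1.41 CPM in LKO 5, 6 and 8 and at 2.79 CPM in LKO 7, with a log2 fold change of -0.53 (adjusted p = 0.257). Without LKO 7, its highest LKO library, it was -0.92 (adjusted p = 0.0171), the only call in the 8 fits that left out 1 library. Wnt9b was under 1.3 CPM in every female (-0.17), and Rspo3, the Wnt enhancer, lay between 5.41 and 7.98 CPM in floxed and between 4.13 and 7.11 CPM in LKO females (-0.06).

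Among vessel genes found on most endothelia, 4 of 7 fell. Mmrn2, a matrix protein that holds VEGF-A near endothelial cells, was at 7.01, 4.94, 5.63 and 5.09 CPM in floxed and 3.57, 2.87, 3.81 and 2.72 CPM in LKO females. The groups did not overlap, and LKO 7 stood close to LKO 5. Mmrn2 fell by 0.80 ± 0.17 (adjusted p = 0.0201), a call lost without floxed 1, LKO 6 or LKO 8 (adjusted p up to 0.0609). Adgrl4, an adhesion receptor of endothelial cells, was at 8.66, 9.24, 8.12 and 10.52 CPM in floxed and 3.53, 4.42, 6.99 and 3.99 CPM in LKO females. LKO 7 was far above its group here and still below every floxed female. The log2 fold change of Adgrl4 was -0.95 ± 0.20 (adjusted p = 0.0217).

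Ramp2, the partner that makes the calcitonin receptor-like receptor respond to adrenomedullin, was at 5.73, 6.09, 5.10 and 5.75 CPM in floxed and 3.47, 2.87, 4.35 and 3.46 CPM in LKO females. It fell by 0.68 ± 0.15 (adjusted p = 0.0230) without overlap. Egfl7, a secreted vessel protein and host of miR-126, was at 21.9, 20.5, 19.6 and 22.1 CPM in floxed and 11.6, 14.6, 18.1 and 12.8 CPM in LKO females. The 4 LKO females were again all lower, by 0.56 ± 0.13 (adjusted p = 0.0280). Adgrl4 and Ramp2 lost their call if floxed 1 or 2 or LKO 5, 6 or 8 was omitted (adjusted p up to 0.0623 and 0.0730), and Egfl7 also if floxed 3 was (up to 0.0812). Ramp2 shares exon sequence with Vps25 on the same strand and Egfl7 with the gene models Gm20532 and Mir126a, so their counts may hold reads of those neighbours. The other 3 genes of the group had no call. Emcn, a sialomucin, and Robo4, a guidance receptor, were at -0.98 (adjusted p = 0.0754) and -0.57 (adjusted p = 0.135). Of the 8 fits that left out 1 library, both were called in 1, that without LKO 7, their highest LKO library. There they were at -1.38 (adjusted p = 0.00739) and -0.85 (adjusted p = 0.00989), and 7.78% of all genes were called lower. With no library left out, DESeq2 called Emcn (adjusted p = 0.0244). A fit of all 16 libraries together called Emcn (adjusted p = 0.0175) and Robo4 (adjusted p = 0.0458), with 1467 of 16126 genes called lower. Plvap, at 57.1 to 72.0 CPM in floxed and 64.2 to 77.4 CPM in LKO females, was at 0.17 ± 0.10 (adjusted p = 0.294).

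Junction proteins, which hold neighbouring endothelial cells together, had 0 of 4 calls. Cdh5 (VE-cadherin) lay between 21.7 and 28.6 CPM in floxed and between 20.5 and 29.3 CPM in LKO females, with a log2 fold change of 0.07 ± 0.13 (adjusted p = 0.745) that turned to -0.008 with library totals. Pecam1 (CD31) overlapped as well, at -0.28 (adjusted p = 0.362). Esam, an endothelial adhesion molecule, was lower in every LKO female, 5.04 to 5.91 against 6.52 to 7.59 CPM, at -0.39 (adjusted p = 0.0522). It was called with DESeq2 (adjusted p = 0.0177) and with library totals (adjusted p = 0.0270). Icam2 was at -0.60 (adjusted p = 0.195). The transcription factors had 0 of 2 calls: Gata4, a keeper of sinusoidal identity that stellate cells also express, was at -0.26, and Sox18 was at -0.87 ± 0.29 (adjusted p = 0.0907). Sox18 was called with DESeq2 (adjusted p = 0.0318), in the fit of all 16 libraries (adjusted p = 0.0359) and without LKO 7 (adjusted p = 0.0286). Of the genes of haemostasis and nitric oxide, F8 (clotting factor VIII, which the liver makes in its endothelium) fell by 0.73 (adjusted p = 0.0476), from between 6.74 and 7.40 CPM to 3.03 to 4.10 CPM in LKO 5, 6 and 8 and 6.12 CPM in LKO 7. F8 kept its call only without LKO 7 (adjusted p up to 0.116 without another library). Nos3, Thbd and Vwf had no call, at -0.41, 0.13 and -0.26.

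**Figure D4:**
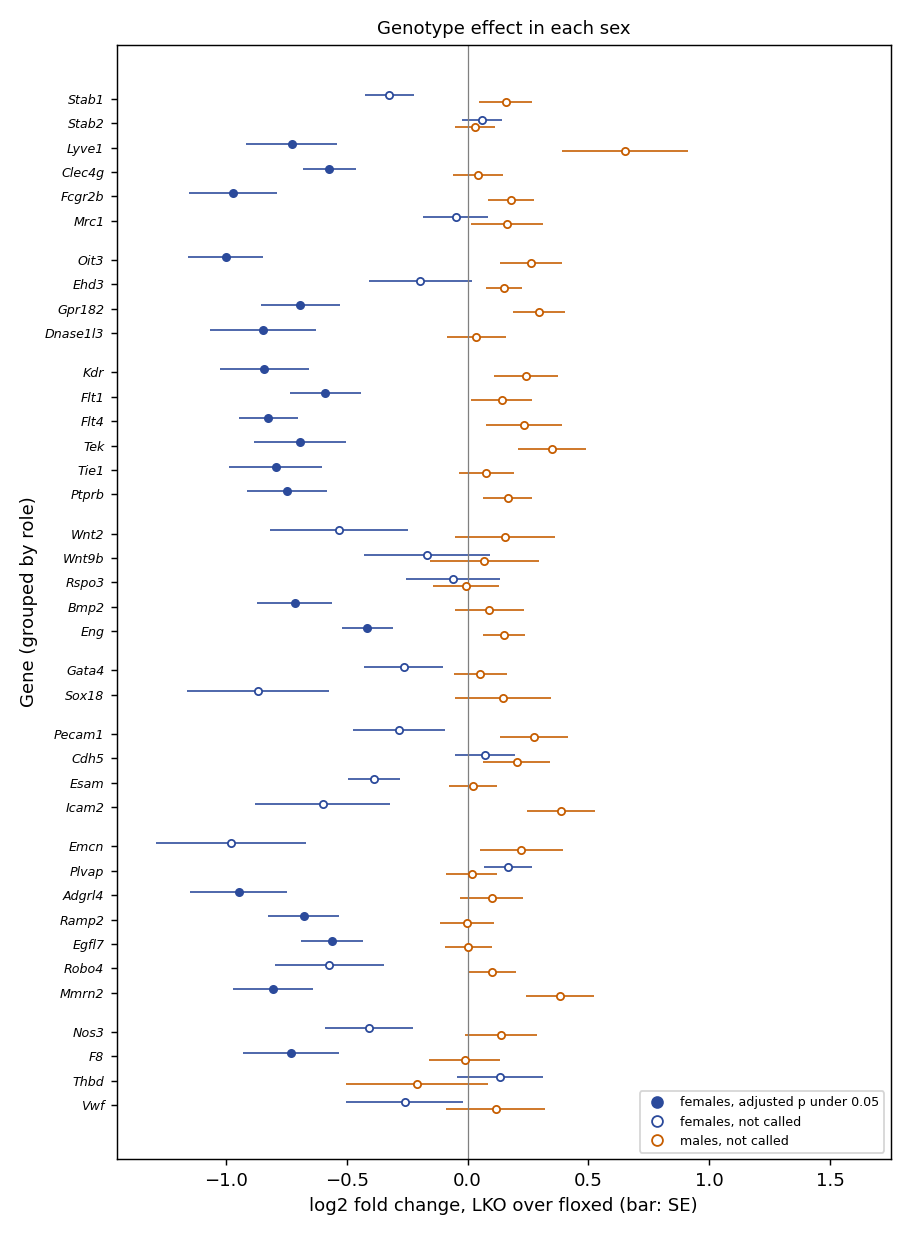
Log2 fold change of LKO over floxed for each of the 38 genes in females (blue) and males (orange), with SE bars; filled points are called. The 19 called genes all lie to the left of 0 in females, and 34 of the 38 male values lie to the right of 0 without a call.

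In males none of the 38 genes was called by edgeR or by DESeq2 (which called 3.44% of all genes in either direction), and 5 had an unadjusted p under 0.05 with each tool. Of all 15355 genes tested in males, 0.528% were called higher and 0.514% lower. The median log2 fold change of the 38 genes was 0.14, with 34 values above 0. LKO males were all above floxed males for 2 genes, Icam2 and Mmrn2 (3.96% of all genes), and all below for 0 (4.18% of all genes). Mmrn2 was at 7.33, 7.21, 4.71 and 5.76 CPM in floxed males and 8.13, 7.73, 8.89 and 7.86 CPM in LKO males, with a log2 fold change of 0.38 ± 0.14 (adjusted p = 0.277). Lyve1 had the largest male value, 0.65 ± 0.26 (adjusted p = 0.334), on widely spread levels of 4.57 to 9.97 CPM in floxed and 7.30 to 14.1 CPM in LKO males.

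The male values depended on single libraries of both genotypes. Of the floxed males, floxed 1 and 2 have deposited library names with numbers well above those of all other libraries. Floxed 3 was lowest for most genes, and without it the median fell to 0.07 with 27 values above 0. LKO 8 was the highest LKO male for 21 of the 38 genes, and without it the median fell to 0.09 with 32 values above 0. Without floxed 1 and floxed 2, 38 of 38 values were above 0, the median was 0.32, and 4 genes were called higher (0.784% of all genes): Tek (0.61, adjusted p = 0.0372), Ptprb (0.38, adjusted p = 0.0283), Pecam1 (0.56, adjusted p = 0.0369) and Mmrn2 (0.64, adjusted p = 0.0485). Without any single male library, the number called was 0. The summed level of the 38 genes was 801.1, 771.5, 604.3 and 672.7 CPM in floxed males and between 750.2 and 843.2 CPM in LKO males, so the spread among floxed males was wider than the distance between the group means of 712.4 and 781.5 CPM.

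The effect of the genotype differed between the sexes for 15 of the 38 genes, each with the more negative value in females (interaction term over 16 libraries). Of all 16126 genes in that fit, 2.45% were called in this direction and 4.42% in either. All 6 genes of the VEGF and angiopoietin axis, the phosphatase Ptprb included, were among the 15. Female minus male log2 effects were -1.26 for Oit3 (adjusted p = 0.00645), -1.18 for Mmrn2 (0.0103), -1.15 for Fcgr2b (0.0116), -1.05 for Flt4 (0.0141), -0.98 for Gpr182 (0.0152), -1.08 for Kdr (0.0208) and -0.91 for Ptprb (0.0208). These 7 kept their call without any 1 of the 16 libraries and under the 7 other settings tried. The other 8 were Lyve1 (-1.38), Adgrl4 (-1.04), Tek (-1.04), Tie1 (-0.87), Flt1 (-0.73), Ramp2 (-0.67), Clec4g (-0.61) and Eng (-0.56), each lost when at least 4 of the libraries were left out singly. The number called ran from 7 (without male LKO 8, 1.5% of all genes, or without female LKO 5, 1.47%) to 25 (without female LKO 7, 4.93%). It was 8 without male LKO 7, female floxed 2, female LKO 6 or female LKO 8, and 11 without male floxed 1 and 2 together (0.898%). In the 4 fits with 8, all genes called in this direction numbered 247 of 16390, 268 of 16363, 276 of 16360 and 322 of 16380. Stab2, Plvap and Cdh5 had no call for the difference.

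In floxed livers, 4 of the 38 genes differed between females and males, against 11.3% of all genes called higher in females and 11.6% called lower. Mrc1 was higher in females, at 40.0, 51.3, 41.3 and 60.2 CPM against 34.4, 36.2, 21.7 and 32.9 CPM in males, a log2 difference of 0.62 ± 0.15 (adjusted p = 0.00823). Markers of macrophages, which also express Mrc1, moved the same way: 13 of 14 were called higher in floxed females, and their part in the Mrc1 value was not tested. Lyve1 was lower in females, at 2.41, 3.64, 2.84 and 3.61 CPM against 10.1, 9.42, 4.62 and 6.14 CPM in males, a log2 difference of -1.28 ± 0.25 (adjusted p = 0.00168). Neither pair of groups overlapped, and both calls held without any 1 library. Wnt2 was lower in females (-0.74, adjusted p = 0.0467) and Cdh5 higher (0.41, adjusted p = 0.0484). Wnt2 kept its call without 7 of the 16 libraries and Cdh5 without 5.

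Other genes of the same pathways were read from lists that, like the 38 genes, were drawn up with results of these data known. Some lists also hold genes of the 38. Where 1 library was left out, the share of all genes called lower changed too, as given above. Of the other VEGF, angiopoietin and Notch genes, 3 of 20 tested fell in LKO females and 1 rose. Angpt1, the activating ligand of Tek, fell by 1.44 ± 0.26 (adjusted p = 0.0120), from 1.54 to 2.74 CPM in floxed to 0.657 to 0.897 CPM in LKO females. Vegfa, the ligand of Kdr, which hepatocytes make in quantity, fell by 0.48 ± 0.10 (adjusted p = 0.0240), from 218.1 to 275.6 CPM to 157.3 to 196.3 CPM. Bmp6, the partner of Bmp2 in iron sensing, fell by 0.96 (adjusted p = 0.0205), and Nrp1, a coreceptor for VEGF, rose by 0.56 (adjusted p = 0.0194). Of these, Angpt1 alone kept its call without any 1 library, and the list had 1 call without floxed 1 or LKO 5. Vegfa and Bmp6 lost theirs if floxed 1 or 2 or LKO 5 or 6 was omitted, Vegfa also with LKO 8 omitted, and Nrp1 if floxed 1 or 3 or LKO 5 was.

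Further endothelial transcription factors had 4 of 19 called lower. Elk3, an ETS-family repressor, fell by 0.83 (adjusted p = 0.0216), Meis2 by 0.75 (adjusted p = 0.0162), Sox7, a relative of Sox18, by 1.17 (adjusted p = 0.0317) and Ets1 by 0.37 (adjusted p = 0.0348). The list had 0 calls without LKO 5 and 7 without LKO 7. Capillary, arterial and large-vessel genes had 4 of 21 lower and 1, Icam1, an adhesion molecule that inflammation induces, higher (0.53, adjusted p = 0.0477). Those lower were the basement membrane chain Lama4 (-1.27, adjusted p = 0.0119), the matrix protein Sparcl1 (-1.13, adjusted p = 0.0162), the water channel Aqp1 (-1.04, adjusted p = 0.0192) and the arterial ligand Efnb2 (-0.95, adjusted p = 0.0238). Lama4 kept its call without any 1 library, and the list had 1 call without floxed 1 or LKO 5 and 9 without LKO 7.

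By zone of the lobule, 2 of 5 genes of the periportal sinusoid fell, Efnb2 and Ltbp4 (-1.10 ± 0.13, adjusted p = 0.00367), a TGF-beta binding protein whose call held without any 1 library. Of 7 genes of the pericentral sinusoid, 1 fell, Cdh13 (-0.94, adjusted p = 0.0481), and its call held only without LKO 7. That list also holds Wnt2, Wnt9b, Rspo3 and Thbd, already given above without a call. Of 5 lymphatic markers tested, 3 were lower. They were Flt4 and Lyve1, both already counted above, and Reln (-0.57, adjusted p = 0.0122). Prox1, which hepatocytes also express, was at -0.11. On the hepatocyte side of the Wnt signal, 5 of 18 pericentral targets fell and 0 rose. They were Nkd1 (-0.75, adjusted p = 0.0119), Cyp1a2 (-1.21, adjusted p = 0.0138), Notum (-0.61, adjusted p = 0.0226), Lect2 (-0.59, adjusted p = 0.0359) and Rnf43 (-0.80, adjusted p = 0.0473). The call of Cyp1a2 was lost in the 16-library fit (adjusted p = 0.379), and the list had 2 calls if floxed 1 or 2 or LKO 5 or 6 was omitted. Of 9 BMP targets, Atoh8 rose (0.68, adjusted p = 0.0224) and Smad6 fell (-0.55, adjusted p = 0.0487), both without a call when floxed 1, LKO 5, LKO 6 or LKO 8 was left out. Besides Flt4, the genes named from these lists that kept their call without any 1 library were Angpt1, Lama4, Ltbp4, Reln, Nkd1 and, among single-sex fits, Cyp1a2. Meis2 lost its call only without LKO 5, and the others lost theirs at least without floxed 1 and without LKO 5. In males all 8 of these lists had 0 calls, where 0.528% of all genes were called higher and 0.514% lower. For the difference of the effects, 2.45% of all genes were called with the more negative value in females. In this direction were called 4 of 20 VEGF, angiopoietin and Notch genes, 1 of 19 transcription factors and 5 of 21 large-vessel list genes. Also called were 3 of 5 periportal and 1 of 7 pericentral sinusoid genes and 2 of 6 lymphatic markers. Of 18 pericentral Wnt targets and 9 BMP targets, 0 were called.

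Markers of other liver cells were read in the same females. Kupffer cell and macrophage markers had 0 of 14 calls, a median of 0.31 and summed levels of 1001 to 1502 CPM in floxed and 1125 to 1706 CPM in LKO livers. Stellate cell markers had 1 of 14 lower (Lrat, -0.74, adjusted p = 0.0205), and their summed level was lower in every LKO female, 435.0 to 468.5 against 487.6 to 572.6 CPM. Cholangiocyte markers had 1 of 7 lower (Epcam, -0.87, adjusted p = 0.0476) and a median of -0.31. Those of T, NK and B cells (11 tested) and mesothelium (5 tested) had 0 calls, with medians of -0.31 and -0.69. The mesothelial sums overlapped, 158.4 to 211.6 CPM in floxed and 142.4 to 195.0 CPM in LKO females. Neutrophil markers had 0 of 7 calls, with a summed level of 84.7 CPM in floxed 4 against 12.9 to 16.7 CPM in the other floxed females and 28.7 to 121.7 CPM in LKO females. Without floxed 4 they had 5 calls and macrophage markers 4, in a fit that called 1039 of all 15633 genes higher and 971 lower. With all female libraries, 685 of 15432 genes were called higher and 748 lower. The Lrat call was lost if floxed 1, 2 or 3 or LKO 5 was omitted, and the Epcam call held only without floxed 4. No gene of these lists was at 0 in all libraries of a group.

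Hepatocyte markers had 4 of 14 higher and 2 lower, with a median of 0.44. Their summed level was nevertheless lower in every LKO female, 60590 to 75990 CPM against 76970 to 85330 CPM in floxed females. Fgb, a fibrinogen chain that is also an acute-phase gene, rose by 1.16 (adjusted p = 0.00868), Hnf4a by 0.52 (adjusted p = 0.0230) and Pck1 by 0.77 (adjusted p = 0.0278), whereas Alb fell by 0.88 (adjusted p = 0.0303). The list had 1 call without floxed 1, LKO 5 or LKO 8. Acute-phase genes, which hepatocytes induce in inflammation, moved most, with 9 of 10 called higher, led by Saa2 (4.72, adjusted p = 0.00510) and Saa1 (3.89, adjusted p = 0.00523). Their summed level was 12650 to 23200 CPM in floxed females and 65890, 107500, 43830 and 50410 CPM in LKO 5 to 8. LKO 7, highest for most endothelial genes, was the LKO library with the lowest acute-phase sum. LKO 6, with the highest sum, was lowest of the LKO females for 18 of the 38 genes. The median log2 ratio of the 19 called genes to the floxed mean was -0.82, -0.98, -0.34 and -0.92 in LKO 5 to 8. Not all libraries kept this order: LKO 8 had a smaller acute-phase sum than LKO 5 and the more negative median. Among floxed females, floxed 4 had both the highest acute-phase sum (23200 CPM) and the highest sum of the 38 genes (783.3 CPM). The share of counts on mitochondrial transcripts was also lower in LKO females, 2.40% to 3.10% against 3.31% to 4.26%. The part of these changes in the endothelial values was not tested. In males acute-phase genes had 0 of 10 calls, and their sums overlapped, 9939 to 13870 CPM in floxed and 9955 to 11900 CPM in LKO males.

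**Figure D5:**
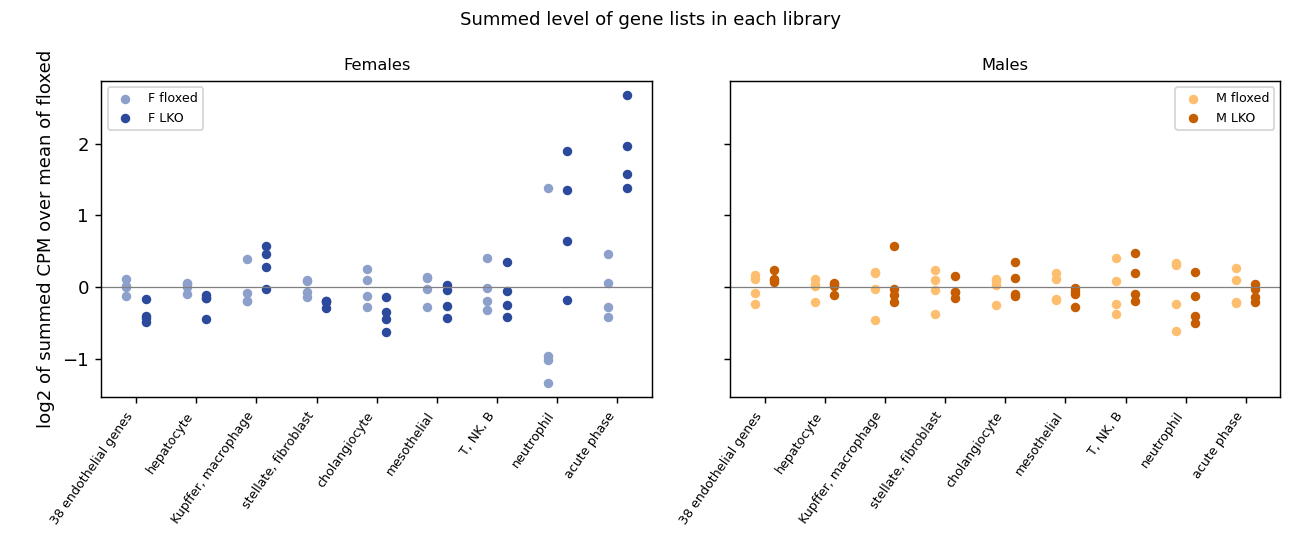
Summed CPM of each gene list in each library, as log2 over the mean of the 4 floxed libraries of the same sex, for females (left) and males (right). The 38 endothelial genes lie below the floxed mean in all 4 LKO females (517.3 to 649.9 CPM against 665.0 to 783.3 CPM) while acute-phase genes lie above it, and in males neither list is separated in that way.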

How the data were processed

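Liver RNA from 16 mice in 4 groups was read as the authors' deposited whole-number counts per gene, 1 table for each sex. Libraries were directional and poly(A)-enriched and the build was mm10, per the labels' protocols and the submitters' processing notes. The aligner, the counter and its strand setting are not given in the sources used here, so genes whose exons overlap on the opposite strand may share counts: antisense models with Stab2, Clec4g, Fcgr2b, Rspo3 and Nos3, Nt5dc2 with Stab1, Zbtb39 with Gpr182, Fpgs with Eng, Agpat2 and Mir126b with Egfl7, and Atg9b with Nos3. Identifiers without a symbol numbered 28 in females and 26 in males. Totals per library ran from 30495505 to 36496193 counts.

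Symbols, exon lengths and coordinates came from GENCODE vM21 (GRCm38, the same assembly as mm10). Each sex was fitted alone with edgeR 4.0.16 in R 4.3.3 (filterByExpr with minimum count 10 and minimum total 15, TMM, quasi-likelihood F-test, two-sided, Benjamini-Hochberg over all genes tested). The sexes were compared (the difference of the effects, and floxed females against males) in 1 fit of the 16 libraries on identifiers common to both tables. The test was run on simulated data first. Libraries were checked for copies, and within a group no pair had a chi-square per degree of freedom under 12.67. Replicates are separate mice per the labels' numbers, with no batch named.

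The 38 genes, the lists and the tests were chosen with earlier results of these data known. Called genes are named with library values for the 12 smallest p in females, and up to 4 genes with the smallest p per list, with others of a list where its calls were completed. Alternatives were median-of-ratios scaling, library totals, no filter, DESeq2 1.42.0, the 16-library fit, a replicate block, joint omission of named pairs, and each library left out in turn.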

Additional observations from a re-analysis of the deposited data

Results flagged for a closer look

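In groups of 4, a single library stood apart from the other 3 for 12 of 152 combinations of gene and group, by a gap larger than Dixon's 95% critical share of the range. Chance alone gives about 1 in 20. Female LKO 7 was high for 5 genes. It was at 26.1 CPM for Dnase1l3 (others 11.8 to 14.1), 5.94 for Tek (3.47 to 3.87), 9.18 for Tie1 (4.87 to 5.57), 10.95 for Bmp2 (7.06 to 7.60) and 15.2 for Gata4 (10.03 to 10.7). Female floxed 4 was high for Rspo3 at 7.98 CPM (others 5.41 to 5.56), Cdh5 at 28.6 (21.7 to 22.5) and Vwf at 8.64 (3.93 to 4.45). Male floxed 3 was low for Bmp2 at 8.96 CPM (13.96 to 14.4) and Egfl7 at 18.5 (22.8 to 23.5). Male floxed 2 was high for Sox18 at 5.29 CPM (3.16 to 3.45), and male LKO 8 for Flt1 at 10.47 (7.67 to 7.88).

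The effect of the genotype differed between females and males by the interaction term of edgeR for 15 genes. Female minus male log2 values, each with its adjusted p, were -1.38 (0.0363) for Lyve1, -0.61 (0.0379) for Clec4g, -1.15 (0.0116) for Fcgr2b, -1.26 (0.00645) for Oit3 and -0.98 (0.0152) for Gpr182. They were -1.08 (0.0208) for Kdr, -0.73 (0.0435) for Flt1, -1.05 (0.0141) for Flt4, -1.04 (0.0249) for Tek, -0.87 (0.0457) for Tie1 and -0.91 (0.0208) for Ptprb. The rest were -0.56 (0.0335) for Eng, -1.04 (0.0276) for Adgrl4, -0.67 (0.0407) for Ramp2 and -1.18 (0.0103) for Mmrn2.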

How the results depend on the processing

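With 4 mice a group, each library weighs heavily, and Emcn and Wnt9b rest on few counts. The number of the 38 genes called in females was 19 with median-of-ratios scaling and without a filter, 21 with library totals, 22 in the 16-library fit, 23 with DESeq2 and 23 without female floxed 4 and LKO 7. It ran from 3 to 24 over the fits that left out 1 library. In males it was 0, and 4 without floxed 1 and 2. For the difference of the effects it was 15, ran from 7 to 25 with 1 library left out, and was 24 without female floxed 4 and LKO 7, 21 with DESeq2 and 11 without male floxed 1 and 2. All genes called lower for the difference numbered 395 of 16126 in the reported fit and 1101 of 16268, 735 of 14864 and 150 of 16705 under those 3 settings. In females they numbered 748 of 15432, and 1220 of 15428 with DESeq2 and 1514 of 15457 without floxed 4 and LKO 7. They numbered 1467 of 16126 in the 16-library fit, 1240 of 15432 with library totals and 744 of 24840 without a filter. Between floxed females and males 4 of the 38 genes were called, 2 without a filter and from 2 to 6 with 1 library left out. All genes called there in either direction numbered 3698 of 16126, and 3305 of 23167 without a filter. They numbered 2971 of 16362, 3310 of 16363 and 3465 of 16387 without female floxed 1, 2 and 3 (2 of the 38 each). Without female LKO 7 (6 of the 38) they numbered 3907 of 16361. The cause was not tested. Fits without a library also test fewer mice.

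Replicate numbers are shared only between the sexes. Same-numbered males and females had deviations from their group means that correlated between -0.16 and 0.19, and 2 of 8 numbers matched their own best, so the numbers were not taken to pair the mice. With the replicate block the difference was called for 12 of the 38 genes and floxed females against males for 3. Of all 16126 genes, that fit called 271 lower for the difference, and 1458 higher and 1479 lower between floxed females and males. No paired analysis was possible within a sex because the floxed and LKO mice share no number.

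Library totals in place of TMM moved all genes called in females from 685 higher and 748 lower to 449 and 1240, those for the difference from 318 and 395 to 203 and 698, and those between floxed females and males from 1826 and 1872 to 2460 and 1217. All genes called in females numbered 1433 with edgeR and 2415 with DESeq2. Some values without a call changed sign. In females, library totals gave -0.019 for Stab2 and -0.008 for Cdh5, and omission of floxed 4 and LKO 7 gave 0.036 for Mrc1, 0.13 for Rspo3 and 0.052 for Vwf. With 1 library left out, values ran from -0.13 to 0.080 for Mrc1, -0.30 to 0.0059 for Wnt9b, -0.16 to 0.097 for Rspo3, -0.012 to 0.18 for Cdh5 and -0.38 to 0.081 for Vwf. In males Thbd was at -0.21, turned to 0.43 without floxed 1 and 2 and ran from -0.43 to 0.17 with 1 library left out.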
